A study of Mus musculus with 12 samples.

Results

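Voltage-gated ion channel genes were compared between the spinal cords of P278KY and WT mice. The genes were chosen by symbol and level: pore-forming and auxiliary subunits of sodium (Scn), calcium (Cacn), potassium (Kcn) and hyperpolarization-activated (Hcn) channels with a mean of at least 0.5 TPM over the 12 mice. TPM, a share of all transcripts, is a level scaled by transcript length and by the library total, so that levels of different genes can be set side by side. Of 38924 genes in the tables, 137 had a matching symbol and 118 reached the minimum. The rule did not use the genotype. Just inside the minimum were Kcnmb1 (0.605 TPM) and Scn11a (0.633 TPM). The highest genes below the minimum were Kcnh3 (0.447 TPM), Kcnj4 (0.444 TPM) and Kcnh4 (0.43 TPM). The rule also takes in inward rectifiers (Kcnj), K2P leak channels (Kcnk) and the TARP proteins (Cacng), which carry channel symbols but have no voltage sensor or serve glutamate receptors. Scn2a, a main sodium channel of central neurons, is not matched by the rule under the older symbol that the files use.

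The P278KY mice were heterozygous for the P278KY allele of Gars (GarsP278KY/+), 3 females (mice 3, 4 and 9) and 3 males (6, 7 and 8). The WT mice were 3 females (1, 2 and 10) and 3 males (5, 11 and 12). All were 8 weeks old, on a B6J;CAST strain background, and each library is RNA from the whole spinal cord of 1 mouse. Gars encodes glycyl-tRNA synthetase, and this dominant allele is a mouse model of inherited peripheral neuropathy, in which motor and sensory axons degenerate. The mutation is present in every cell, and the counts do not tell the mutant allele from the WT allele.

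Sodium channels open on depolarization and carry the upstroke of the action potential, calcium channels turn depolarization into transmitter release and calcium signals, and potassium channels repolarize the membrane and set how fast a neuron can fire. Inward rectifiers and leak channels set the resting potential, in neurons and in glia, where they also take up potassium released by firing axons. HCN channels open on hyperpolarization and contribute to the resting conductance of large neurons. Motor neurons, interneurons, glia and the long myelinated tracts of the cord each use a different set of these genes.

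The libraries held 26982140 to 39339999 expected counts (RSEM's estimate of reads per gene), and 17980 genes were tested, all 118 channel genes among them. Gars was at 140.7 ± 2.95 CPM in P278KY cord and 128.8 ± 6.52 CPM in WT cord (SD, n = 6 each; log2 change 0.13, adjusted p = 0.046, a call lost without any 1 mouse other than WT females 1 and 2), where CPM is counts over 1e+06 counts of the scaled library. All neuron, astrocyte and oligodendrocyte markers were detected in both genotypes. Some libraries stood apart. WT female 1 lay at the end of the first principal component, mice 1 to 4 had the highest level of skeletal muscle markers (mean log2 CPM of 6.20 to 9.04, against 2.03 to 4.13 in mice 5 to 12), and mice 7, 10 and 11 had the highest level of sensory ganglion markers (2.26 to 3.04, against 0.68 to 1.11 in the other 9). The clock genes Dbp, Per2 and Per3 were low in mice 9 to 12 (mean log2 CPM of 4.96 to 5.18, against 5.58 to 5.77 in mice 1 to 8). Mouse 9 was P278KY and mice 10, 11 and 12 were WT, so this set was not balanced by genotype. Markers of motor neurons were lower in P278KY cord, with a mean log2 CPM of 4.87 to 5.14 in P278KY and 5.31 to 5.77 in WT libraries. Of 17 tested motor neuron markers, 10 fell and 0 rose (of all tested genes 2.95% fell and 2.36% rose). This list shares Prph, Calca and Isl2 with the sensory ganglion list and holds neurofilament genes, which other neurons also express. In whole tissue, fewer cells of a type and less RNA per cell cannot be told apart.

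The cord expressed a broad set of channel genes, dominated by a few. Mean TPM was 100 or more for 10 members, 10 to 100 for 57, 1 to 10 for 46 and below 1 for 5. Among the highest were the glial inward rectifier Kcnj10 (352.3 TPM), the pacemaker channel Hcn2 (324.3 TPM) and the Kv1 auxiliary subunit Kcnab2 (303.7 TPM). Kcnc1, Scn4b, Kcna1, Cacng7 and Kcnt1 were at 173.2, 169.6, 134.9, 131.3 and 121.7 TPM. Together the members summed to 4608 ± 137 TPM in P278KY and 4528 ± 229 TPM in WT cord (SD, n = 6 each), a difference within the spread between mice.

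**Figure D1:**
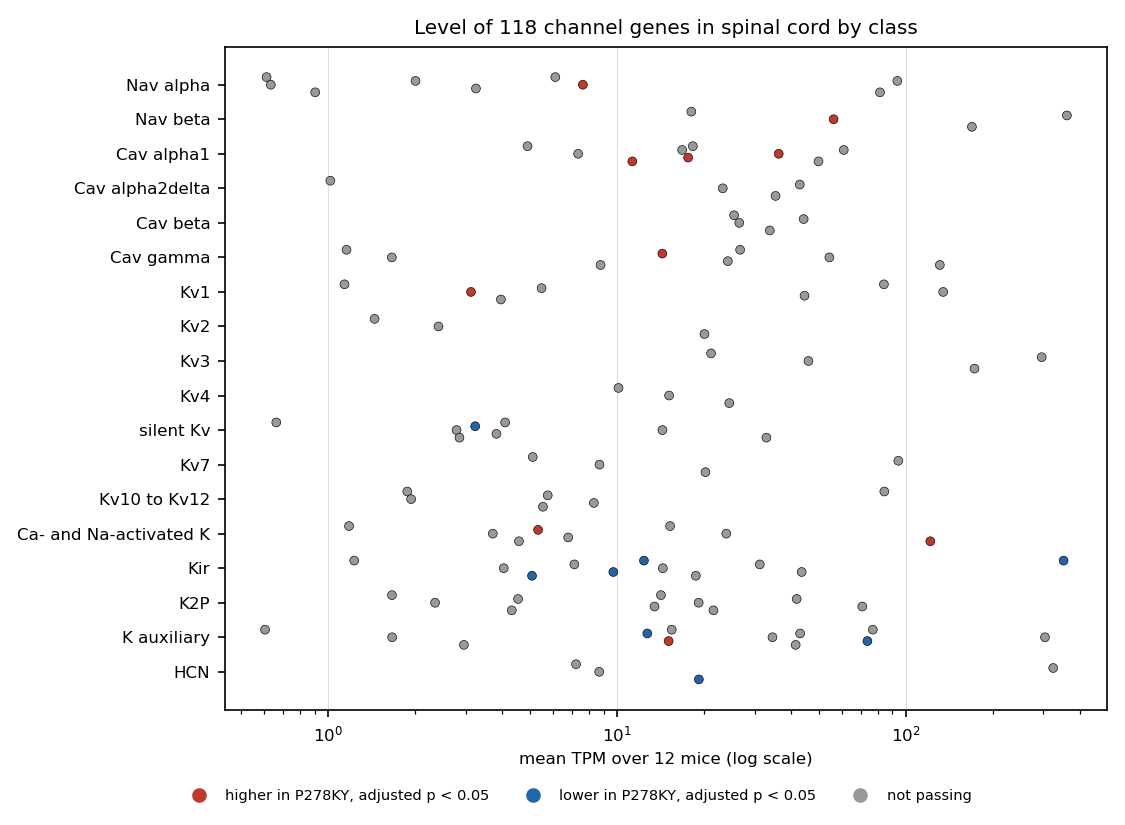
Mean TPM over the 12 mice (log axis) of each of the 118 channel genes, by channel class, 1 point per gene, coloured by the genotype call. Kcnj10, Hcn2 and Kcnab2 lie near the high end of the TPM axis, at 303.7 to 352.3 TPM. The genes that differ by genotype lie at low, middle and high levels.

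By genotype, 18 of the 118 members passed an adjusted p of 0.05 (edgeR's quasi-likelihood test with sex as a term, adjusted over all tested genes). Of these, 10 were higher and 8 lower in P278KY cord. The share was 15.3% of the members, against 5.32% of all tested genes; it was 8.47% against 2.36% for higher and 6.78% against 2.95% for lower calls. Of all 118 members, 61 had a log2 change above 0 and 57 below, with a median log2 change of 0.00881, against -0.00309 over all tested genes. The calls were small. Rises were 1.13-fold to 1.42-fold and falls 1.14-fold to 2.16-fold, and Kcnj14 was the only called member that changed by 1.5-fold or more. All 18 had the same sign in females and in males. The test that called them used both sexes together, so this is no separate support. For 11 members (9.32%) the 6 P278KY and the 6 WT values in CPM did not overlap, 6 above and 5 below WT. The share was 3.73% of all tested genes (1.73% above and 2% below). The 100 members that did not pass had a median log2 change of 0.0999 in size, and 8 of them reached 0.5. By class, 4 of the 8 falls were inward rectifiers, and 3 of the 10 rises were calcium channel alpha1 genes. In the Kv2, Kv3, Kv4, Kv7, Kv10 to Kv12, K2P, Cav beta and alpha2delta classes no member passed.

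**Figure D2:**
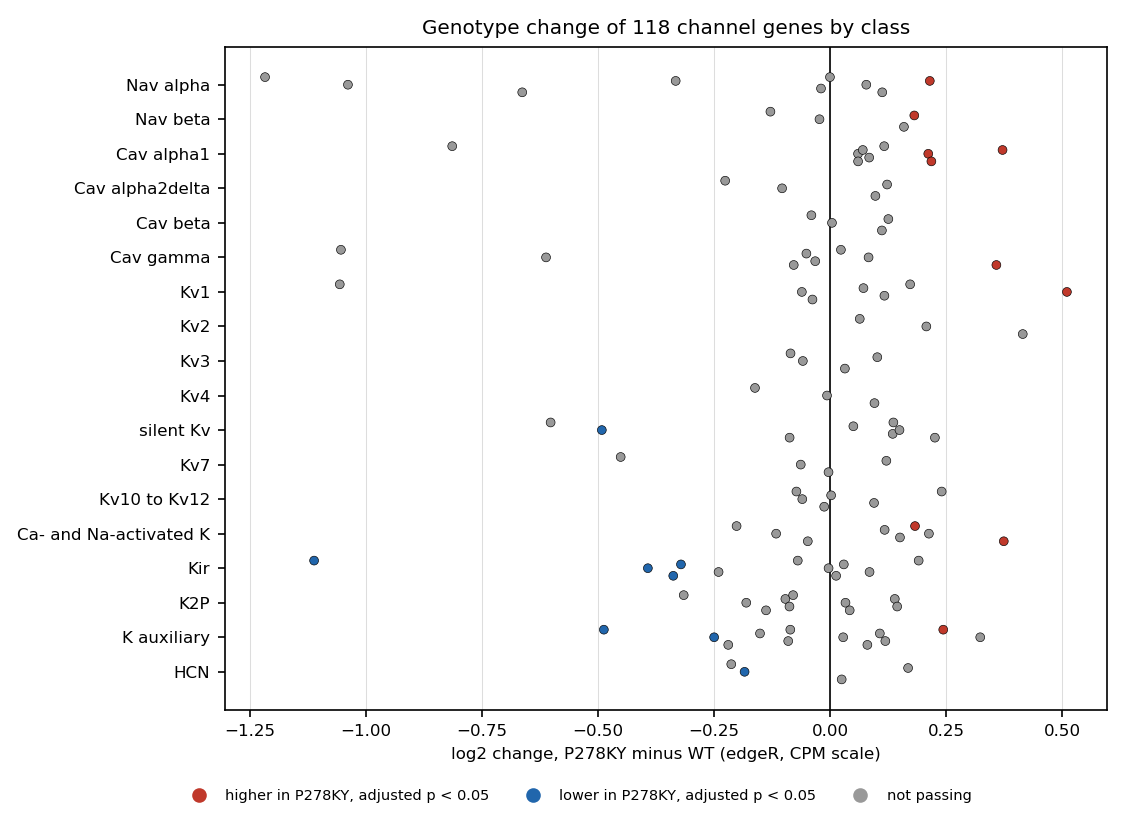
Log2 change, P278KY minus WT (edgeR, CPM scale), of each of the 118 channel genes by class, 1 point per gene. Red points were higher and blue points lower at an adjusted p under 0.05, grey points did not pass. Of the Kir genes 4 are blue and of the Cav alpha1 genes 3 are red, and Kcnj14 lies farthest left among the called genes.

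The count depended on single libraries. Without WT female 1 it was 30 members (14 higher, 16 lower; 25.4% against 7.76% of all genes), all 18 among them, and without P278KY female 4 it was 10 (8.47% against 3.34%). Without mice 1 to 4 it was 11 (9.32% against 3.22%), without mice 7, 10 and 11 it was 7 (5.93% against 1.42%), and without mice 9 to 12 only Kcnj14 passed (0.847% against 0.506%). Members called without WT female 1 but not with all 12 mice included Kcnma1, Kcnh5 and Kcnb2, which were higher. They also included Hcn2, Kcnn1, Kcnab2, Kcnk9, Kcna1, Kcnd1 and Scn4b, which were lower. Of the 18, 9 passed in each of the 12 fits with 1 mouse left out: Kcnj14, Kcnj10, Kcnj12, Cacna1b, Cacna1e, Cacna1c, Cacng3, Kcnt2 and Kcnab1. Of these 9, Kcnj12 (log2 change -0.30, adjusted p = 0.0618), Cacna1c (0.19, adjusted p = 0.0651) and Kcnt2 did not pass without mice 1 to 4, and Cacna1e (0.37, adjusted p = 0.0607) and Kcnab1 (-0.23, adjusted p = 0.0879) did not pass without mice 7, 10 and 11. Kcnj14 passed in each alternative run. On the TPM scale (limma on log2(TPM + 1)), where the median of all tested genes was 0.06, 20 members were called higher and 3 lower (87% higher, against 55.6% on the CPM scale). Of the 18, 12 passed there too. Kcnj2, Kcng1, Kcnab1, Kcnip2 and Kcnmb4 kept their sign without passing.

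Among 11 inward rectifier genes, 4 fell and 0 rose (of all tested genes 2.95% fell and 2.36% rose). Each of the 4 had all P278KY mice below all WT mice in CPM, as had 2% of all tested genes. Kir channels pass potassium inward more easily than outward and hold cells near the potassium equilibrium potential. Kcnj14 (ENSMUSG00000058743, chromosome 7, 45816460 to 45824782, minus strand, GRCm38) encodes Kir2.4, which was described in motor neurons of the rat brainstem. Its lowest, median and highest values were 9.22, 9.86 and 12.2 CPM in P278KY mice and 18.2, 23.6 and 26.3 CPM in WT mice. The highest P278KY mouse was well below the lowest WT mouse. The log2 change was -1.11 (SE 0.10, adjusted p = 6.4e-05), a level 2.16-fold lower in P278KY cord. The mean level of the motor neuron markers, given above, was also lower in every P278KY library than in any WT library, with no marker at 0 and summed levels of 4319 to 4574 CPM in P278KY and 5037 to 7274 CPM in WT mice. These markers are not all confined to motor neurons, and their part in the fall of Kcnj14 was not tested.

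Kcnj10 (ENSMUSG00000044708, chromosome 1, 172341210 to 172374085, plus strand) encodes Kir4.1, the main potassium-buffering channel of astrocytes and oligodendrocytes. It was at 829.4, 856.8 and 909.8 CPM (lowest, median, highest) in P278KY and 974.5, 1105 and 1145 CPM in WT mice, again with no overlap. The log2 change was -0.34 (SE 0.04, adjusted p = 0.000686). Of 8 astrocyte markers 1 rose and 0 fell (summed level 7037 to 8101 CPM in P278KY, 6485 to 7174 CPM in WT), and of 8 oligodendrocyte markers none passed (13402 to 16284 CPM in P278KY, 13493 to 17364 CPM in WT). No marker of either list was at 0. Because Kcnj10 is so abundant, the class sum of Kir genes was 462.3 ± 9.52 TPM in P278KY and 537.8 ± 36.1 TPM in WT cord (SD, n = 6 each). Kcnj16, the Kir5.1 partner of Kcnj10, varied widely between mice (73.3 ± 12.2 CPM in P278KY, 87.1 ± 21.96 CPM in WT; log2 change -0.24, SE 0.17, adjusted p = 0.499).

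Kcnj12 (ENSMUSG00000042529, chromosome 11, 61022564 to 61071131, plus strand) and Kcnj2 (ENSMUSG00000041695, chromosome 11, 111066164 to 111076821, plus strand) encode Kir2.2 and Kir2.1, strong rectifiers of neurons and muscle. Kcnj12 was at 9.23, 9.56 and 10.7 CPM in P278KY and 11.3, 12.5 and 13.1 CPM in WT mice (lowest, median, highest; log2 change -0.32, SE 0.06, adjusted p = 0.00634). Kcnj2 was at 10.4, 12.4 and 13.7 CPM in P278KY and 14.6, 15.1 and 21.1 CPM in WT mice (log2 change -0.39, SE 0.09, adjusted p = 0.021). In CPM the groups did not overlap for either gene. In TPM those of Kcnj12 did, with P278KY mice up to 9.83 and WT mice from 9.75. The highest Kcnj2 value was that of WT female 1. Without that mouse the Kcnj2 change was -0.31 (adjusted p = 0.0133), and the call did not hold without P278KY female 4 (adjusted p = 0.0516). The other 7 Kir genes did not pass, among them the G protein-gated subunits Kcnj3, Kcnj6 and Kcnj9 (log2 changes of -0.0030, 0.19 and 0.03) and the KATP subunits Kcnj8 and Kcnj11 (0.01 and 0.09).

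**Figure D3:**
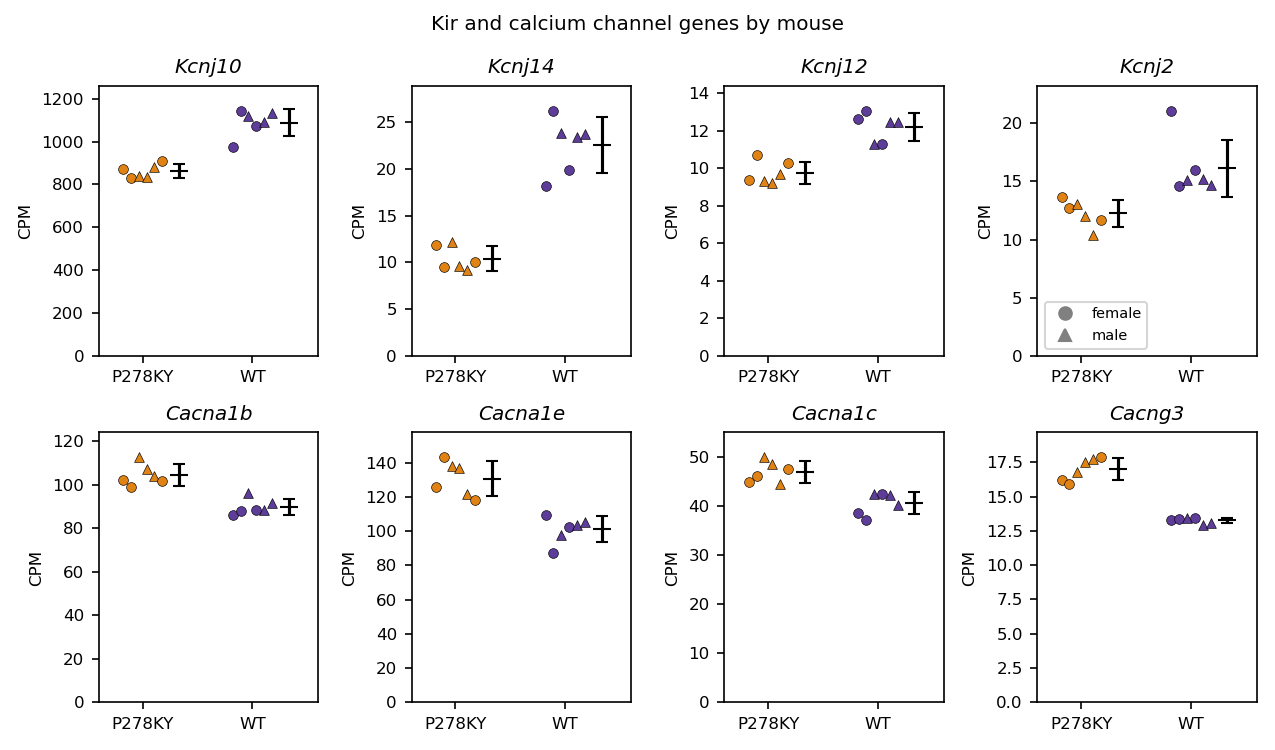
CPM of 4 Kir genes (top) and of 3 Cav alpha1 genes and Cacng3 (bottom) in each mouse, P278KY left and WT right, circles for females and triangles for males, bars for mean ± SD (n = 6 each). The P278KY mice lie below the WT mice for each Kir gene and above them for each gene of the bottom row.

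The promoters of 3 of the Kir genes that fell and 2 of the calcium channel genes that rose are shown for the sequence at their starts. Those of Kcnj14, Cacna1c and Cacng3 are not shown. They are RefSeq entries (GRCm38.p6, 250 bases before to 50 after the start), each 5′ to 3′ on the gene's strand. Capitals mark the GC box GGGCGG, the CCAAT motif, the TATA motif TATAAA and the half-site TGACG of cAMP response elements, searched on both strands. A start lies inside the longer GENCODE gene for Kcnj12 and Cacna1e.
Kcnj10, chr1:172340960-172341259, plus strand: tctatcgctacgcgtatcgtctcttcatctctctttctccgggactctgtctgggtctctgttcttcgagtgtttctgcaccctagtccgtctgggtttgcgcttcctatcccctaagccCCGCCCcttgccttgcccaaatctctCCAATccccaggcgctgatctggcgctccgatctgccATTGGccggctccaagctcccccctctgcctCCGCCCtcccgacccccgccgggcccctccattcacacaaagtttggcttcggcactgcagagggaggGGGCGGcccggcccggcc
Kcnj12, chr11:61065554-61065853, plus strand: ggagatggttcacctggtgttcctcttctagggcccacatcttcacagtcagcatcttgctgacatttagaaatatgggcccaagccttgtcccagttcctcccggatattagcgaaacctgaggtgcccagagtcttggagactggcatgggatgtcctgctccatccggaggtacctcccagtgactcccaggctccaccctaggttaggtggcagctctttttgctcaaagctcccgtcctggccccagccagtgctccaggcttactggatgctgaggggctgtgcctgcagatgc
Kcnj2, chr11:111065914-111066213, plus strand: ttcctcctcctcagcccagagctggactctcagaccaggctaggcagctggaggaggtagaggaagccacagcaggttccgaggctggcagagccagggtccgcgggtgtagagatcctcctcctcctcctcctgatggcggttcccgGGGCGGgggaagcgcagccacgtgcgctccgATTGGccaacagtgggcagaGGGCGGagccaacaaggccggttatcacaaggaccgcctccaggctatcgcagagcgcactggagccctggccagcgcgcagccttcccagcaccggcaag
Cacna1b, chr2:24763103-24763402, minus strand: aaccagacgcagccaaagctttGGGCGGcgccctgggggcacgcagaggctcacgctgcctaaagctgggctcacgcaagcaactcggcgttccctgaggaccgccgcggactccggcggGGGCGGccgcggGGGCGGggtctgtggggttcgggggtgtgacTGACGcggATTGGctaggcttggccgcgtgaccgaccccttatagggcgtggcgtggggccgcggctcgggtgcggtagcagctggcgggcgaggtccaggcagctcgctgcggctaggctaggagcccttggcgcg
Cacna1e, chr1:154725871-154726170, minus strand: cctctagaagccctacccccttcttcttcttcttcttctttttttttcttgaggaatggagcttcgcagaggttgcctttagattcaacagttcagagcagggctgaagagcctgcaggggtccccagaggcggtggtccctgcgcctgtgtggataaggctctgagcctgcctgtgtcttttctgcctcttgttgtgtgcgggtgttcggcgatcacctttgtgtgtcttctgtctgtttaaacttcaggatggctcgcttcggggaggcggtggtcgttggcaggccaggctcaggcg
Kcnj10 held 3 GC boxes and 2 CCAAT motifs and Kcnj2 held 2 and 1, whereas Kcnj12 held none of the motifs. Cacna1b held 3 GC boxes, 1 CCAAT motif and 1 TGACG, and Cacna1e held none. A GC box was present in 46.2% of the 117 promoters of the 84 members in the table and in 35.7% of all 32851 promoters, TATAAA in 4.27% and 13.6%, CCAAT in 29.1% and 37.4%, and TGACG in 16.2% and 20.8%. The median GC content was 59.7% for the members and 52.7% for all promoters. The matches describe these windows and are no evidence of factor binding.

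Of 9 calcium channel alpha1 genes, 3 rose and 0 fell (of all tested genes 2.36% rose and 2.95% fell). Log2 changes were above 0 for 8 of the 9, and for 48.9% of all tested genes. Cacna1b (ENSMUSG00000004113, chromosome 2, 24603887 to 24763152, minus strand) encodes the N-type channel of presynaptic terminals. It was at 98.98, 103.2 and 112.8 CPM (lowest, median, highest) in P278KY and 86.1, 88.4 and 96.3 CPM in WT mice, with a log2 change of 0.22 (SE 0.03, adjusted p = 0.00115). Cacna1e (ENSMUSG00000004110, chromosome 1, 154390731 to 154884501, minus strand) encodes the R-type channel. It was at 118.3, 131.2 and 143.2 CPM in P278KY and 87.5, 102.8 and 109.2 CPM in WT mice (log2 change 0.37, SE 0.06, adjusted p = 0.00375). Cacna1c (ENSMUSG00000051331, chromosome 6, 118587240 to 119196418, minus strand) encodes a widely expressed L-type channel. It was at 44.5, 46.9 and 49.98 CPM in P278KY and 37.2, 41.3 and 42.4 CPM in WT mice (log2 change 0.21, SE 0.04, adjusted p = 0.0104). In CPM every P278KY mouse was above every WT mouse in all 3 genes (1.73% of all tested genes were separated in this direction). In TPM the Cacna1b groups overlapped (32.6 to 48.96 in P278KY, 28.2 to 37.6 in WT mice). The class sum was 241.8 ± 14.0 TPM in P278KY and 205.6 ± 13.6 TPM in WT cord (SD, n = 6 each). This sum is in TPM, whereas the log2 changes above are on the CPM scale. On log2(TPM + 1) the median change of all tested genes was 0.06, against -0.00309 on the CPM scale.

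The 2 most abundant alpha1 genes did not pass. Cacna1a, the P/Q-type channel of fast synapses, was at 175.3 ± 6.30 CPM in P278KY and 168.1 ± 6.73 CPM in WT (log2 change 0.06, adjusted p = 0.327), and the T-type gene Cacna1g was at 110.8 ± 7.28 CPM in P278KY and 104.4 ± 2.38 CPM in WT (0.08, adjusted p = 0.265). Cacna1d, Cacna1h and Cacna1i had log2 changes of 0.06, 0.12 and 0.07. The mean log2 CPM of neuron markers lay between 8.05 and 8.13 in P278KY and between 7.97 and 8.16 in WT libraries, and of 12 of them 1 rose and 1 fell. Of the alpha2delta subunits, which carry the channel to the membrane, and the cytoplasmic beta subunits, 0 of 8 passed, with Cacna2d2 (0.10, adjusted p = 0.108) and Cacnb3 (0.13, adjusted p = 0.13) the smallest p-values. Cacng3 was the single riser among 8 gamma subunits. It encodes a TARP, which carries AMPA-type glutamate receptors to synapses, and was at 15.9, 17.2 and 17.9 CPM in P278KY and 13.0, 13.3 and 13.4 CPM in WT mice, with no overlap (log2 change 0.36, SE 0.04, adjusted p = 0.000547). In TPM the Cacng3 groups overlapped (P278KY mice from 12.92, WT mice up to 13.4). The TARPs Cacng7 and Cacng2, which were higher in TPM, had log2 changes of 0.02 and -0.08 (adjusted p = 0.787 and 0.443).

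Among the sodium channel genes, 1 alpha and 1 beta subunit passed, both higher (2.36% of all tested genes were called higher). Scn1a, the Nav1.1 channel of fast-firing neurons, was at 385.2 ± 8.94 CPM in P278KY and 364.9 ± 18.8 CPM in WT cord (log2 change 0.08, adjusted p = 0.219). Scn8a, the Nav1.6 channel of nodes of Ranvier, was at 467.8 ± 11.96 CPM in P278KY and 467.8 ± 21.9 CPM in WT cord (adjusted p = 1). Of 9 alpha subunits only Scn3a rose, a channel best known from the developing nervous system. Its lowest, median and highest values were 29.5, 33.4 and 35.5 CPM in P278KY and 24.0, 28.6 and 31.5 CPM in WT mice (log2 change 0.22, SE 0.06, adjusted p = 0.049). The groups overlapped, and the call was lost in 11 of the 12 fits with 1 mouse left out, all but the fit without WT female 1 (adjusted p up to 0.109). Of 4 beta subunits Scn2b, which links channels to adhesion molecules, rose to 126.1, 137.6 and 150.5 CPM in P278KY, against 111.4, 120.1 and 138.4 CPM in WT mice (log2 change 0.18, SE 0.04, adjusted p = 0.0243), with overlap. The Scn2b call did not hold without P278KY female 4, P278KY male 6 or 7, WT female 10, or WT male 5 or 11 (adjusted p up to 0.0685). Scn4b, a subunit of fast resurgent current, did not pass (-0.13, adjusted p = 0.123).

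Several members that are known from muscle or sensory ganglia were high in a few libraries of both genotypes. The muscle channel genes Scn4a and Cacna1s were at 28.9, 5.93, 12.8 and 4.12 CPM and at 75.3, 17.7, 29.98 and 10.7 CPM in mice 1 to 4. In the other 8 mice they were at 0.138 to 0.836 and 0.439 to 2.60 CPM. Cacng1, Cacng6 and Kcna7, also of muscle, were highest in the same mice. The sensory neuron genes Scn10a and Scn11a were at 17.6 and 10.1 CPM in P278KY male 7, at 9.5 and 6.56 CPM in WT female 10 and at 7.21 and 4.76 CPM in WT male 11, and at most 0.301 and 0.237 CPM in the other 9. None of these 7 passed for genotype, although their log2 changes reached -1.22.

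**Figure D4:**
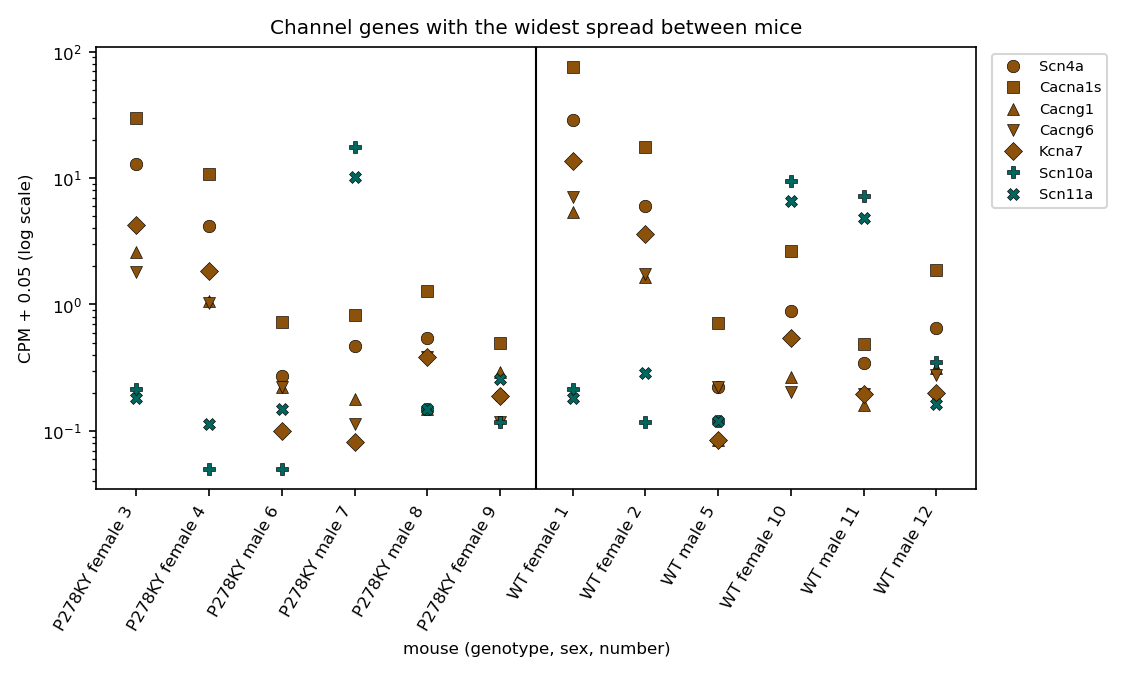
CPM plus 0.05 (log axis) of 5 muscle channel genes (brown) and 2 sensory ganglion channel genes (green) in each mouse, P278KY mice left of the line and WT mice right of it. The muscle genes are high in mice 1 to 4 and the ganglion genes in mice 7, 10 and 11, in both genotypes.

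Few genes of voltage-gated potassium channel pores passed. The axonal Kv1 genes Kcna1 and Kcna2, whose proteins sit beside the nodes under the myelin, were at 611.6 ± 16.8 and 151.8 ± 7.12 CPM in P278KY and 637.8 ± 38.6 and 140.0 ± 7.45 CPM in WT cord (log2 changes -0.06 and 0.12, adjusted p = 0.387 and 0.123). Kcna5, a low-level Kv1 gene, was the 1 of 7 that rose, at 4.02, 5.31 and 5.90 CPM in P278KY and 3.07, 3.75 and 4.10 CPM in WT mice (lowest, median, highest; log2 change 0.51, SE 0.12, adjusted p = 0.0224). The groups overlapped narrowly, and the call did not hold without P278KY female 4, P278KY male 6, or WT male 11 or 12 (adjusted p up to 0.0612). Kcnc1, a Kv3 channel of fast-spiking neurons, had a log2 change of 0.10 (adjusted p = 0.0824). The Kcnc1 groups did not overlap although the test was not passed (340.5 ± 8.72 CPM in P278KY, 317.3 ± 13.0 CPM in WT). Kcnd2 and Kcnd3, of the A-type Kv4 channels, had log2 changes of -0.0064 and 0.10, and Kcnd1 of -0.16 (adjusted p = 0.057).

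Kcnq3, a subunit of the M-current channel of initial segments and nodes, had a log2 change of 0.12 (adjusted p = 0.169). Of the Kv10 to Kv12 genes, Kcnh2 (-0.01), Kcnh1 (0.0025) and Kcnh5 (0.24, adjusted p = 0.157) did not pass. Kcnb2, of the Kv2 class, is listed under 2 gene identifiers, which had log2 changes of 0.42 and 0.21 (adjusted p = 0.068 and 0.266), so its reads may be split between them. Among 8 electrically silent subunits, which alter Kv2 channels but form none alone, Kcng1 fell to 4.47, 4.75 and 5.10 CPM in P278KY, against 4.89, 6.70 and 8.13 CPM in WT mice (log2 change -0.49, SE 0.11, adjusted p = 0.0216). The P278KY values were close together and overlapped the lowest WT value, and the call did not hold without P278KY male 7 or WT male 11 (adjusted p up to 0.0547). Kcng4, the highest of this class in TPM, ranged so widely (33.3 to 67.5 CPM in P278KY, 41.4 to 114 CPM in WT) that a log2 change of -0.60 did not pass (SE 0.34, adjusted p = 0.365). Kcns3 had a log2 change of 0.05 (adjusted p = 0.721).

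Both sodium-activated potassium channel genes rose. Kcnt1 (Slack) was at 174.3, 190.8 and 202.3 CPM in P278KY and 146.4, 167.8 and 182.9 CPM in WT mice (lowest, median, highest; log2 change 0.18, SE 0.04, adjusted p = 0.0286), with overlap. Kcnt2 (Slick) was at 11.6, 13.0 and 14.4 CPM in P278KY and 9.15, 9.80 and 11.5 CPM in WT mice, with no overlap (log2 change 0.37, SE 0.08, adjusted p = 0.0127). The Kcnt1 call did not hold without P278KY female 4 or 9, P278KY male 6 or 7, or WT male 11 or 12 (adjusted p up to 0.0715). Without mice 1 to 4 the Kcnt2 change was 0.32 (adjusted p = 0.125). Of the calcium-activated channels none passed: the BK channel gene Kcnma1 had a log2 change of 0.21 (adjusted p = 0.0823), and the SK channel genes Kcnn1, Kcnn2 and Kcnn3 of -0.20, 0.12 and -0.05 (adjusted p = 0.0907, 0.133 and 0.808). Among 10 K2P leak channel genes 0 passed. Kcnk1 had a log2 change of 0.03 (adjusted p = 0.854) and Kcnk9, the TASK3 channel, was at 21.99 ± 1.27 CPM in P278KY and 25.0 ± 2.26 CPM in WT cord (-0.18, SE 0.06, adjusted p = 0.0812).

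Of 12 potassium channel auxiliary subunit genes, 1 rose and 2 fell (of all tested genes 2.36% rose and 2.95% fell). Kcnab1, which encodes Kvbeta1, a subunit that speeds inactivation of Kv1 channels, was at 97.0, 102.6 and 106.1 CPM in P278KY and 104.1, 125.1 and 129.3 CPM in WT mice (lowest, median, highest; log2 change -0.25, SE 0.04, adjusted p = 0.00494). The overlap came from WT female 1, the lowest WT mouse. Kcnmb4, the neuronal BK channel beta4 subunit, was at 4.68, 6.93 and 7.08 CPM in P278KY and 7.44, 9.35 and 10.3 CPM in WT mice, with no overlap (-0.49, SE 0.12, adjusted p = 0.0276). In TPM the Kcnmb4 groups overlapped (P278KY mice up to 12.5, WT mice from 11.58). The Kcnmb4 call did not hold without P278KY female 4, P278KY male 7, WT female 2 or 10, or WT male 5 or 11 (adjusted p up to 0.0653). Kcnip2, a calcium-binding subunit of Kv4 channels, was at 15.2, 18.03 and 20.2 CPM in P278KY and 14.8, 14.99 and 15.5 CPM in WT mice (0.24, SE 0.06, adjusted p = 0.023), with overlap. Its call did not hold without P278KY female 4, P278KY male 6 or 7, or WT male 5, 11 or 12 (adjusted p up to 0.0621). The more abundant Kcnab2 and Kcnab3 did not pass (-0.09 and 0.03, adjusted p = 0.428 and 0.798).

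Of the HCN channel genes, Hcn2 was at 481.8 ± 36.8 CPM in P278KY and 558.3 ± 48.0 CPM in WT cord without passing (log2 change -0.21, SE 0.06, adjusted p = 0.0765). Hcn2 did pass without WT female 1 (-0.26, adjusted p = 0.0104). Hcn4 lay in the other direction (0.17, adjusted p = 0.0776) and Hcn3 had a change of 0.03 (adjusted p = 0.857).

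**Figure D5:**
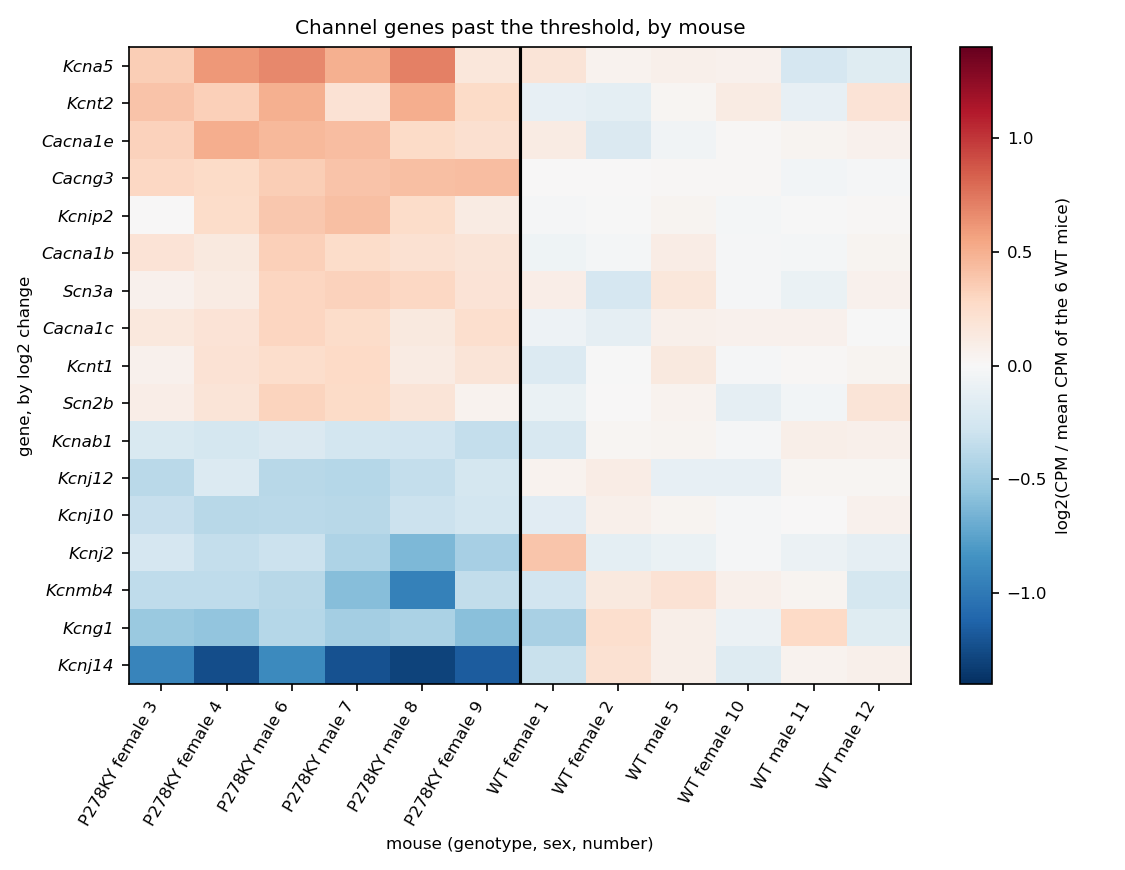
Log2 of the CPM of called channel genes over its mean in the 6 WT mice (colour scale), in each mouse, P278KY mice left of the line and WT mice right of it. Kcnj14 is dark blue in all 6 P278KY mice, and WT female 1 departs from the other WT mice for Kcnab1 and Kcnj2.

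The genotype change was not found to differ between the sexes. For the interaction 0 of 118 members passed by edgeR, against 0% of all tested genes, with 5 at an unadjusted p under 0.05 (3.7% of all tested genes were). DESeq2 gave 0 and 4, and limma on log2(TPM + 1) 0 and 5. The smallest p-values, none of which passed, were those of Hcn3 (male minus female change 0.29, adjusted p = 0.926), Kcnmb1 (1.37, adjusted p = 1) and Kcna5 (0.45, adjusted p = 1). For sex itself 0 members passed by edgeR, against 0.089% of all tested genes, with 20 at an unadjusted p under 0.05 (8.95% of all tested genes were). The smallest p-values were those of Cacng1 (log2 male minus female -3.64), Kcna7 (-4.80) and Cacnb3 (0.18), all with an adjusted p of 0.316. The Wald test of DESeq2 called 6 for sex, of which Cacna1s, Cacng1, Cacng6, Kcna7 and Scn4a are the muscle channel genes high in mice 1 to 4, all female, and Cacnb3 is the other.

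Genes of proteins that anchor or modify channels, with the leak channel gene Nalcn, were counted from a list of 50, of which 48 were tested. In P278KY cord 3 rose and 2 fell (10.4%, against 5.32% of all tested genes), with a median log2 change of 0.0114, against -0.00309 over all tested genes. Nalcn, the sodium leak channel, rose to 119.9 CPM (median) in P278KY, against 109.0 CPM in WT mice (log2 change 0.15, adjusted p = 0.00651). Its partner Unc80 rose to 443.6 CPM, against 394.3 CPM in WT mice (medians, log2 change 0.19, adjusted p = 0.0147). Cntnap2, which clusters Kv1 channels beside the nodes, rose by 0.16 (adjusted p = 0.0153). Of the called partners, Nalcn, Unc80, Cntnap2 and Gldn did not overlap between the groups in CPM (of all tested genes 3.73% did not). In TPM the Cntnap2 groups overlapped (P278KY mice from 51.34, WT mice up to 54.49). Fgf11, of the family that binds sodium channel tails, fell by 0.25 (adjusted p = 0.018), and leaving out P278KY male 6 ended that call (adjusted p = 0.0508). Without mice 1 to 4, Unc80 and Cntnap2 did not pass (adjusted p = 0.0792 and 0.0559). Without mice 7, 10 and 11, Nalcn, Cntnap2 and Fgf11 did not pass (adjusted p = 0.064, 0.096 and 0.136). Without mice 9 to 12 none of the called partners passed. Gldn, gliomedin, a node-organizing protein made by Schwann cells, was at 3.58, 5.30 and 6.14 CPM in P278KY and 7.22, 10.9 and 13.6 CPM in WT mice (-1.10, SE 0.18, adjusted p = 0.00474). Of 12 Schwann cell markers, a list that includes Gldn, 3 fell and 0 rose (of all tested genes 2.95% fell and 2.36% rose). The list also holds Mbp and Sox10, which are not confined to Schwann cells in the cord. Summed levels, which the most abundant markers dominate, were 12676 to 16548 CPM in P278KY and 15556 to 20397 CPM in WT, with no marker at 0. The mean log2 CPM of these markers was 4.95 to 6.10 in P278KY and 6.195 to 6.83 in WT libraries, without overlap. The median log2 change of these markers was -0.738. Their part in the fall of Gldn was not tested.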

How the data were processed

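RNA of whole spinal cord was sequenced from 6 P278KY and 6 WT mice, 3 of each sex per genotype. Per the labels' protocols, polyadenylated RNA was made into stranded libraries and read from both ends at 75 bp. Bowtie2 2.2.0 and RSEM 1.2.12 were used for alignment and quantification, per the submitters' processing notes. The sources used here do not give the genome build, the annotation or the strand setting of the counting, so reads of overlapping genes may not be separated. The authors deposited expected counts, RSEM's estimates, which divide a read between the genes it fits. TPM values as deposited correct for transcript length and library total, per the file headers.

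Expected counts were rounded to whole numbers, and genes were kept by filterByExpr of edgeR over the 4 groups of sex and genotype (minimum count 10), which left 17980 genes. Libraries held 26982140 to 39339999 expected counts with TMM scaling. Genotype and sex were tested with the robust quasi-likelihood F test of edgeR in an additive model of all 12 mice, and their interaction in a model of 4 group means. P-values were adjusted over all tested genes by the Benjamini-Hochberg method, with a threshold of 0.05. They judge each difference against the spread between mice. SE is the size of the log2 change divided by the root of the F statistic. List means used log2 CPM with a prior count of 2. The fit was also run on simulated counts with known changes. These held no library that stood apart, so they do not show how single libraries move the calls. The versions were edgeR 4.0.16, DESeq2 1.42.0 and limma 3.58.1 under R 4.3.3. Positions are those of GENCODE M21 (GRCm38), which matched 117 of the 118 members. Promoters are those of RefSeq.

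All called members, the 2 highest members of each class in TPM, the smallest p-value of a class without calls, the 3 smallest p-values for sex and for the interaction, and called genes of the partner list were named. Other named genes were chosen after their values were seen. Some members are not reported here by name, though they stay in the fits and counts. The members and lists were chosen with earlier results of these data known. The alternatives were DESeq2 size factors, DESeq2's Wald test, limma voom with sample weights, limma on log2(TPM + 1), no filter and a stricter filter, no rounding, no sex term, other TPM minimums, and mice left out singly or in sets.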

Additional observations from a re-analysis of the deposited data

Results flagged for a closer look

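For each channel gene, called partner and Gars, the highest and the lowest of the 6 mice of a genotype were compared with the other 5. In 18 of 248 groups of 6 mice (7.26%) a mouse stood apart by Dixon's criterion, which chance meets in about 1 in 20 groups. Of the 18, 9 were WT female 1, the library at the end of the first principal component, and for none was the cause tested. Of the 18, 16 are given here. P278KY female 4 was high for the TARP gene Cacng2 (155.6 CPM) and for Fgf11 (49.1 CPM), and low for Kcnq5 (14.3 CPM). P278KY male 7 was low for the calcium-activated channel gene Kcnn4 (0.90 CPM) and high for the sensory neuron channel genes Scn9a (19.2 CPM), Scn10a (17.6 CPM) and Scn11a (10.1 CPM), beside the highest level of ganglion markers of all 12 libraries. WT male 5 was high for Kcnj3 (73.6 CPM).

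WT female 1 was low for the channel genes of fast-firing neurons and axons Kcnc1 (291.3 CPM), Kcna1 (563.6 CPM) and Scn4b (389.6 CPM), for Kcnh2 (112.5 CPM), for Kcnab1 (104.1 CPM) and for Cacng7 (124.6 CPM). The same mouse was high for Kcnj2 (21.1 CPM) and Kcnh5 (13.9 CPM). It also had the highest level of skeletal muscle and endothelium markers (mean log2 CPM of 9.04 and 5.83) and the lowest level of neuron markers (7.97), whose part in these values was not tested.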

How the results depend on the processing

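No paired analysis was possible because the mouse numbers are not shared between the genotypes. No call changed sign under any alternative run. With 1 mouse left out the called members numbered 10 to 30 (higher 5 to 14, lower 5 to 16); the count was lowest without P278KY female 4 and highest without WT female 1, and the rises also dropped to 5 or 6 without P278KY male 6 or 7 or WT male 11 or 12. Without mice 1 to 4 it was 11 (5 higher), without mice 7, 10 and 11 it was 7 (4 higher, 3 lower), and without mice 9 to 12 it was 1 (0 higher, 1 lower). These sets leave fewer mice, and mice 9 to 12 were mostly WT, so leaving them out makes the genotypes uneven. The share of all genes called fell with these sets, to 3.22%, 1.42% and 0.506%. The Wald test of DESeq2 called 26 and voom with sample weights 27, with 14 lower in the voom fit. On log2(TPM + 1), 20 were higher and 3 lower. The cause of these shifts was not tested. For sex, the Wald test called 6 members where edgeR called 0; the interaction gave 0 in each alternative. The other settings gave 16 to 19 called members. Kcna5 and Kcng1 were the called members with the lowest CPM, and the effect of depth on their calls was not tested.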
